A study of Mus musculus with 2 samples.

Results

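The genes of thyroid hormone action examined here are 7: Thra and Thrb encode the nuclear receptors of the hormone, Dio2 and Dio3 the deiodinases that activate and inactivate it, Slc16a10 a membrane transporter that carries it, and Rxra and Rxrg 2 of the retinoid X receptors that pair with its receptors. They were chosen by name, and all 7 were found among the 21911 protein-coding genes of the mouse annotation. Their loci held 55 of the 68349 open sites that both replicates shared. The study mapped open chromatin by DNase-seq: the enzyme DNase I cuts accessible DNA more often than DNA held in nucleosomes, and sequencing the cut fragments shows where it cut. The tissue was gastrocnemius, the large calf muscle, from female B6CASTF1/J mice of 14 days, first-generation offspring of C57BL/6J and CAST. There was 1 group with 2 biological replicates, each labelled as 3 females, from separate biosamples under the same donor record. These are the only samples analysed here, so no comparison between conditions could be made and no test was run. Printed sequence is that of the C57BL/6J reference genome (mm10), and the alleles were not separated.

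Thyroid hormone reaches muscle mostly as thyroxine, a prohormone. Transporters bring it through the membrane, deiodinase type II removes an outer-ring iodine to give the active triiodothyronine, and deiodinase type III inactivates both forms. The receptors sit on DNA as heterodimers with a retinoid X receptor, classically on direct repeats of AGGTCA, where they bind corepressors without the hormone and coactivators with it. In muscle the hormone is known for raising calcium pump and glucose transporter genes and for shifting myosin from developmental to adult and from slow to fast forms around weaning.

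A site is called shared where a peak of the authors' stricter list in each replicate overlapped by at least 1 bp. A promoter site has its midpoint within 1 kb of an annotated transcript start, and a distal site lies farther from every protein-coding start and has this gene's as the nearest within 50 kb. Nearness says nothing of which gene a site acts on. The signal is the authors' value per peak, whose scaling is not stated. A unit of signal equals 142 whole steps in replicate 1 and 150 in replicate 2, so the values of the member sites came from 45 to 1742 steps in replicate 1 and from 41 to 1800 in replicate 2. Replicate 1 had 87558 strict peaks and 338694 footprints, and replicate 2 had 79562 and 301069. Over all shared sites the median log2 ratio of replicate 2 to replicate 1 was -0.14. Markers of several cell types had shared promoter sites: 10 of 10 for muscle fibres, 6 of 6 for endothelium, 5 of 6 for fibro-adipogenic cells, 4 of 5 for satellite cells, 3 of 5 for Schwann cells, 3 of 4 for neurons and 2 of 5 for adipocytes. Of all protein-coding genes 63.7% had such a site, so with few markers a count near that share says little about a cell type. Macrophage (0 of 6) and hepatocyte (0 of 4) markers had none in the strict lists. In the permissive lists the macrophage markers Cd68 (1.43 and 1.01), Cd14 (0.636 and 0.698) and Lyz2 (0.389 and 0.499) had promoter peaks in both replicates. Csf1r and Adgre1 had one in a single replicate, Ptprc had none, and neither did any hepatocyte marker. The libraries were made from whole muscle, and fewer cells of a type and less opening per cell cannot be told apart in any value below.

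All 7 genes had a shared promoter site, where 63.7% of all protein-coding genes had one. The members held 17 promoter and 38 distal sites. All 7 had a distal site too, against 49.2% of all genes. By the strongest promoter peak the order was Slc16a10 at 12.1 ± 0.243 (SD, n = 2, as for all means here), Thra at 6.67 ± 0.0648, Thrb at 5.68 ± 0.531, Rxra at 5.23 ± 0.487, Rxrg at 3.66 ± 0.632, Dio3 at 1.08 ± 0.283 and Dio2 at 0.841 ± 0.0606. The replicate values of neighbours in this order overlapped for Thrb and Rxra and for Dio3 and Dio2, and were apart for the other pairs of neighbours. Among the genes with a shared promoter site, whose medians were 7.96 in replicate 1 and 7.19 in replicate 2, Slc16a10 stood at percentile 71.2, Thra at 45.1, Thrb at 39.6, Rxra at 36.9 and Rxrg at 26.7. The deiodinase genes stood at the low end, Dio3 at percentile 5.05 and Dio2 at 2.55. The transporter promoter was thus the most open, the receptor promoters intermediate, and the promoters of the hormone-converting enzymes among the weakest that were called.

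**Figure D1:**
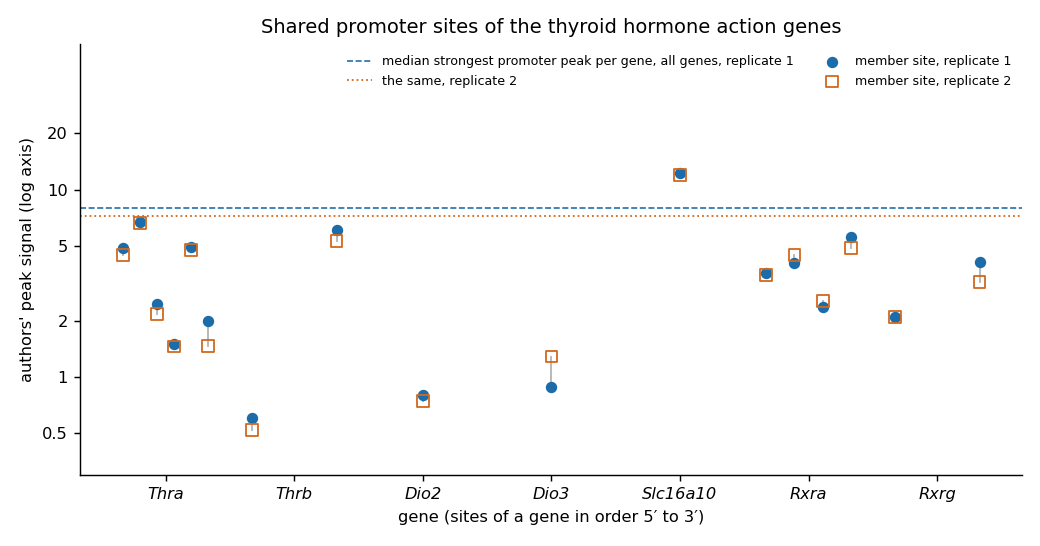
Signal of each of the 17 shared promoter sites of the 7 genes, on a log axis, with sites of a gene in order from 5′ to 3′. Filled circles are replicate 1 and open squares replicate 2, joined by a grey line, and the dashed and dotted lines are the medians of the strongest promoter peak over all genes with a shared promoter site, 7.96 and 7.19. The Slc16a10 site lies above both lines, the sites of the other members below them, and the Dio2 site and the weaker Thrb site lowest.

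Thra encodes the receptor that predominates in skeletal muscle, and alternative splicing of its last exons also gives a form that does not bind the hormone. The gene lies at chr11:98740638-98769006 on the plus strand (mm10). It was the gene with the most promoter sites, 6, spread over its 5′ part, and 4 distal sites lay farther inside the gene. Its strongest site, chr11:98741701-98741880, covers the start of the coding transcript Thra-201 and had signals of 6.71 in replicate 1 and 6.62 in replicate 2. Next among the promoter sites came chr11:98744061-98744240 at the start of Thra-206, a processed transcript, with 4.95 and 4.77, and chr11:98740521-98740720 at the most 5′ start, with 4.87 and 4.49. Each of these 3 was close to equal in the replicates and above the other promoter sites of the gene. Those were chr11:98742200-98742460 with 2.46 and 2.17, chr11:98744601-98744800 with 2.00 and 1.46, and chr11:98743021-98743208 with 1.50 and 1.46. The reference sequence of the strongest site up to the annotated 5′ UTR and of the strongest intronic site is shown, because these had the highest signals at the locus in both replicates. Here and below, sequences run 5′ to 3′ on the gene's strand, and capitals mark bases that lay inside footprints of both replicates, which are short stretches protected from cutting.
Thra promoter, chr11:98741701-98741810, plus strand: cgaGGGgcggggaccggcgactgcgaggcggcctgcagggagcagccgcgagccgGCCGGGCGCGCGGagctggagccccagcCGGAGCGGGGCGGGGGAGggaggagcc
Thra intron 1, chr11:98747501-98747680, plus strand: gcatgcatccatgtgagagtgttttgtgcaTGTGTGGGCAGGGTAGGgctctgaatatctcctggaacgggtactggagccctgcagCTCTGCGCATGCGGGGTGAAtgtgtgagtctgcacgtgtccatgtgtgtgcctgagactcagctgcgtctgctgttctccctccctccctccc

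The 4 distal sites of Thra were all intronic. The strongest, at chr11:98747501-98747680 in intron 1, had 6.22 and 6.02, about the level of the promoter. The site at chr11:98754761-98754940 in intron 2 had 4.81 and 4.25, and its midpoint lay 1265 bp after the start of Thra-203, so that it fell just outside the promoter window of the only Thra start with no site. The site at chr11:98750881-98751100 had 3.56 and 3.40, and the remaining one 2.51 and 1.79. All 10 Thra sites were higher in replicate 1 before centring, and centred on all shared sites their log2 ratios of replicate 2 to replicate 1 ran from -0.34 to 0.12. All 10 had bases inside footprints of both replicates. In the promoter sequence GC content was 83.5% in the 200 bp around the midpoint. It holds GGGCGG, the motif of SP and KLF factors, with 3 matches in the whole site, of which the match at chr11:98741791-98741796 and that at chr11:98741863-98741868 lay wholly inside footprints of both replicates.

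Thrb, the receptor known from liver, pituitary and the inner ear, spans 378 kb at chr14:17660261-18038090 on the plus strand. Of its 6 shared sites 3 lay within about 1 kb of the gene's start, 1 farther upstream and 2 deep in the gene. The promoter site chr14:17660781-17661000, at the start shared by Thrb-201 and Thrb-203, had 6.06 and 5.30. A second, chr14:17659981-17660260, had 0.601 and 0.518 and no footprint in either replicate. A peak between them, chr14:17660481-17660700, was called in replicate 1 alone, with 2.29. The site with the highest mean signal lay just upstream, at -1060 bp and thus barely outside the promoter window: chr14:17659121-17659280, with 6.75 and 4.84, above the promoter site in replicate 1 and below it in replicate 2. Another upstream site, at -27.2 kb (chr14:17633001-17633180), had 4.54 and 3.74. The long body of the gene had 2 weak shared sites more. These were chr14:17967461-17967640 in intron 4, where a non-coding gene, Gm48321, overlaps, with 1.03 and 1.17, and chr14:17927561-17927740 in intron 3, with 1.00 and 0.937. The 2 internal starts of coding transcripts, Thrb-207 at 17962821 and Thrb-202 at 17981529, had their nearest shared site 4.73 kb and 14.0 kb away. Within 1 kb of either no base was listed with a false discovery rate of the cut rate below 0.05 in either replicate, while 1597 and 1614 such bases surrounded the start of Thrb-201.
Thrb promoter, chr14:17660781-17660895, plus strand: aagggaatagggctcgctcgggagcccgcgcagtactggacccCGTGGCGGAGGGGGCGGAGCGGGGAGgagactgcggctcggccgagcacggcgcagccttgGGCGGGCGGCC
Thrb upstream, chr14:17659121-17659280, plus strand: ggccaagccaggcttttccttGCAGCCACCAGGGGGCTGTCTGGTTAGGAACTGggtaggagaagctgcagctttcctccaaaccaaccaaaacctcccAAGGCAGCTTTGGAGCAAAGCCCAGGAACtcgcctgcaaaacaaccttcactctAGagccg
Thrb upstream, chr14:17633001-17633180, plus strand: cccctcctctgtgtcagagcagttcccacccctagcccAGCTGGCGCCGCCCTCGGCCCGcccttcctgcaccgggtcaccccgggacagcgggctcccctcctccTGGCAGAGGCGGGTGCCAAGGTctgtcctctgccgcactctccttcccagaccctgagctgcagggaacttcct

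The 3 strongest Thrb sites are shown because they carry different matches. In the site at -1060 bp, footprints of both replicates covered all 12 bases of a match to the core of the CTCF motif, the recognition sequence of an insulator and loop-anchoring protein, at chr14:17659146-17659157. That site was 40.0% covered by footprints of both replicates. The weak intron 4 site held another CTCF core, at chr14:17967542-17967553, with all 12 bases covered too. In the promoter the 3 GGGCGG matches had 5 or 6 of their bases in footprints of both. The site at -27.2 kb held CAGCTG, the E-box of myogenic factors, with 5 of its 6 bases covered in both, next to a wholly covered GGGCGG.

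Dio2 encodes the type II deiodinase that makes triiodothyronine inside the cell and lies at chr12:90724552-90738438 on the minus strand. Its promoter was weak, and the strongest site of the locus lay outside it. The shared promoter site chr12:90738061-90738260, in the first coding exon 277 bp after the start, had 0.798 and 0.744. Replicate 2 alone had a strict peak upstream of the start, chr12:90738916-90739031, with 0.884. Its counterpart in the permissive list of replicate 1 had 0.403, so the replicate values of the strongest Dio2 promoter peak come from different places. The strongest site, chr12:90740581-90740760 at -2.23 kb in an intron of the non-coding gene Gm26512, had 2.96 and 2.45. Both values were above those of every other site at the locus. With a promoter window of 2500 bp this site would count as the promoter. A site in a coding exon farther downstream, chr12:90729761-90729940, had 1.51 and 1.50, and a site 18.9 kb from the start, chr12:90719401-90719620 beyond the gene's end, had 1.07 and 0.937. The sequences of the promoter site and of the stronger upstream site are shown for their contrast in footprints: 8 bases of the first and 37 of the second lay in footprints of both replicates.
Dio2 promoter, chr12:90738061-90738260, minus strand: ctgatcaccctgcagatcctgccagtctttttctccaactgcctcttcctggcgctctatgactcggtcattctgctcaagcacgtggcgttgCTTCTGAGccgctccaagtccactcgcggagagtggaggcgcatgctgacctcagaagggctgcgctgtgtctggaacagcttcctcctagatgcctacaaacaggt
Dio2 upstream, chr12:90740581-90740760, minus strand: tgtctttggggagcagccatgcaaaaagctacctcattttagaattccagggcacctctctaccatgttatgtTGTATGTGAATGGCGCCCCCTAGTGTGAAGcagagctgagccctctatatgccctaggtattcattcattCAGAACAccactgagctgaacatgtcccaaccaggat

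The Dio2 promoter site held 1 of the 3 AGGTCA matches found in all member sites, at chr12:90738116-90738121. Replicate 2 had 3 of its bases in a footprint and replicate 1 none.

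Dio3 encodes the type III deiodinase, which inactivates the hormone. It is a single-exon imprinted gene at chr12:110279068-110281097 on the plus strand, and it is known for high activity in fetal tissues. Its locus had the fewest shared sites, 2. The promoter site chr12:110278025-110278220 lay at -945 bp, in an exon of the antisense non-coding gene Dio3os and over the microRNA gene Mir1247, with 0.883 in replicate 1 and 1.28 in replicate 2. It was among the sites whose replicates differed most: its centred log2 ratio of 0.68 exceeded in size that of 97.0% of all shared sites. At the Dio3 start itself, chr12:110279081-110279153 was a strict peak in replicate 2 alone, with 0.937, and in the permissive lists the replicates shared it with 0.735 and 0.937. The distal site chr12:110294967-110295085, 15.8 kb from the nearest start, had 1.10 and 0.798. The promoter sequence is shown because no capital appears in it: replicate 1 had 1 footprint in the site and replicate 2 had 3, and no base was common to them.
Dio3 promoter, chr12:110278025-110278220, plus strand: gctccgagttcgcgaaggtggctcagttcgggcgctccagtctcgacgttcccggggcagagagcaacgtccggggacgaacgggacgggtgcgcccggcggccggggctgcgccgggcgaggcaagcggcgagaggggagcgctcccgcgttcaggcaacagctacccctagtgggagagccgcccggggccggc

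Slc16a10 encodes an aromatic amino acid transporter that also carries iodothyronines across the membrane. It lies at chr10:40033532-40142258 on the minus strand, and its promoter was the most open of the 7. The promoter site chr10:40142221-40142440 had 12.3 and 12.0, nearly equal, and stood at percentile 94.2 of all shared sites by mean signal. Past it the gene had little: chr10:40084441-40084620 in intron 1 with 1.74 and 1.42, and chr10:40069351-40069560 in intron 3 with 1.33 and 1.10. The internal start of Slc16a10-203 had no site within 1 kb and no listed base of cut rate in either replicate. The promoter sequence is shown because 36.8% of the site lay in footprints of both replicates. One of its GGGCGG matches, at chr10:40142382-40142387, was wholly covered, and a CTCF core at chr10:40142323-40142334 had 7 of its bases covered in each replicate.
Slc16a10 promoter, chr10:40142256-40142440, minus strand: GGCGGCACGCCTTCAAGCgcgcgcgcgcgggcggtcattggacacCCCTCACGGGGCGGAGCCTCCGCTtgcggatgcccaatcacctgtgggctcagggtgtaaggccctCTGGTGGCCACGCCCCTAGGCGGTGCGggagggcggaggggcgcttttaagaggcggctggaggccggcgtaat

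Rxra encodes the retinoid X receptor found in most tissues, the partner of the thyroid hormone, vitamin D, retinoic acid and lipid-sensing receptors. It lies at chr2:27676440-27762957 on the plus strand and had more sites than the other members, 24. Its 20 distal sites compare with a mean of 1.48 and a median of 0 per protein-coding gene, and 0.169% of genes had as many. The strongest promoter peak, chr2:27740381-27740560 with 5.57 and 4.89, lay at the internal start of Rxra-205, a processed transcript in intron 2. At the starts of coding transcripts the signals were lower. The site chr2:27676921-27677320, at Rxra-201 and Rxra-206, had 4.08 and 4.49, chr2:27676141-27676360, at Rxra-204, had 3.61 and 3.50, and chr2:27677361-27677980 had 2.37 and 2.55. The first of these was wide and held 11 footprints in replicate 1 and 8 in replicate 2, and its GC content of 89.0% was the highest of the 17 promoter sites. The starts of the coding transcripts Rxra-202 and Rxra-203, inside intron 1, had their nearest sites at -4.90 kb and -6.19 kb and no listed base of cut rate within 1 kb.

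Of the 20 distal sites of Rxra, 4 were stronger than each of its promoter sites in both replicates. The median was lower for distal sites, 2.58 and 2.19, than for promoter sites, 3.84 and 3.99. In intron 9, chr2:27758501-27758680 had 12.0 and 9.02. In intron 1, chr2:27699601-27699800 had 9.69 and 9.53. Downstream of the gene, chr2:27772001-27772180 had 7.80 and 6.89 and chr2:27774301-27774700 had 6.86 and 5.81. Of all 20, 10 were intronic and 10 intergenic, and 7 of the latter lay beyond the 3′ end of the gene, with signals from 2.13 to 7.80 in replicate 1 and from 1.87 to 6.89 in replicate 2. The 2 strongest by mean signal are shown. A weaker downstream site is shown for its unusual footprint.
Rxra intron 9, chr2:27758501-27758680, plus strand: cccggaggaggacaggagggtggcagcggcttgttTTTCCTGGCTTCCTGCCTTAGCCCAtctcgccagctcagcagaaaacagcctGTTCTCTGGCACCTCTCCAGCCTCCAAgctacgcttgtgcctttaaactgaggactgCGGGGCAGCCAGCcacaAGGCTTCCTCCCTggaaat
Rxra intron 1, chr2:27699601-27699800, plus strand: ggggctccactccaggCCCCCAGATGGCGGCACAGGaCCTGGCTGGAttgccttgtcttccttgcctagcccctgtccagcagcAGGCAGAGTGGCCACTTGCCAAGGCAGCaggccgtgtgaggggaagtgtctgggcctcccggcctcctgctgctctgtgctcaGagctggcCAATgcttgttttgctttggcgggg
Rxra downstream, chr2:27770301-27770457, plus strand: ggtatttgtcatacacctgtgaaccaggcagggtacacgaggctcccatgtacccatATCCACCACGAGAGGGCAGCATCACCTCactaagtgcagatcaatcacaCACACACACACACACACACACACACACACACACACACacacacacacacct

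The intron 9 site was 43.3% covered by footprints of both replicates and the intron 1 site 31.5%. The downstream site chr2:27770301-27770457 had 2.13 and 2.25 and was 41.4% covered, more than sites of its strength usually were, with a median of 16.7% in its quartile of signal. Its longest stretch shared by footprints, 37 bases, runs along a CA repeat. Whether the repeat played a part in these calls was not tested. A CTCF core lay in the site chr2:27765021-27765200 (5.53 and 4.79) with all 12 bases in footprints of both.

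Close behind the Rxra promoter the replicates differed in which peaks were called. Over 6.64 kb of intron 1, at chr2:27678301-27684940, there were 5 shared sites and 8 strict peaks of replicate 2 alone, and none of replicate 1 alone. Of all strict stretches assigned to genes, 10.7% were called in replicate 2 alone and 17.6% in replicate 1 alone. Wider than 300 bp were 2 of the 5 shared sites, against 8.64% of all shared sites, and 4 of the 8 peaks of replicate 2 alone, against 4.98% of all such stretches assigned to genes. Signals of the shared sites ran from 0.318 to 2.52 in replicate 1 and from 0.273 to 2.19 in replicate 2, and the peaks of replicate 2 alone from 0.173 to 0.778. The site chr2:27681661-27682280, 620 bp wide, had 0.318 and 0.572, a centred log2 ratio of 0.99 that exceeded in size that of 99.6% of all shared sites. Each of the other shared sites of the stretch had a lower signal in replicate 2, with centred log2 ratios from -0.23 to -0.06. The lowest false discovery rate of the cut rate was smaller in replicate 2 at each of the 5 shared sites. It ran from 3.78e-11 to 6.97e-06 in replicate 1 and from 4.8e-99 to 1.73e-10 in replicate 2. Why it ran opposite to the signal at most of these sites was not tested. None of the 5 shared sites had a base inside footprints of both replicates. Replicate 2 is also the library whose label names 2 sequencing instruments, and replicate and instrument cannot be told apart.

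Rxrg encodes the retinoid X receptor known from skeletal muscle and brain and lies at chr1:167598384-167639623 on the plus strand. Its first start was less open than an internal one, and both were weaker than a site past the gene's end. The site at the first starts, chr1:167598341-167598660, had 2.08 and 2.09. The site at the start of Rxrg-202 inside the gene, chr1:167618061-167618300, had 4.11 and 3.21. The strongest site, chr1:167644941-167645160, 5.43 kb beyond the gene's end, had 10.9 and 8.67. It was 45.0% covered by footprints of both replicates, the highest share among the 55 sites. The other distal sites were chr1:167551661-167551820 at -46.6 kb with 2.12 and 2.21, chr1:167638161-167638340 in intron 9 with 1.49 and 1.26, and another in intron 9 with 0.989 and 1.38.
Rxrg internal promoter, chr1:167618061-167618300, plus strand: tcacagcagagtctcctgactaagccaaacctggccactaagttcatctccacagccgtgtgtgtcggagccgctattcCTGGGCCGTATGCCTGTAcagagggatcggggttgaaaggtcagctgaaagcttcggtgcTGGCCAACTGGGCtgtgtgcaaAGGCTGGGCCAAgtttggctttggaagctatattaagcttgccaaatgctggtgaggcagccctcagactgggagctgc
Rxrg intron 9, chr1:167638161-167638340, plus strand: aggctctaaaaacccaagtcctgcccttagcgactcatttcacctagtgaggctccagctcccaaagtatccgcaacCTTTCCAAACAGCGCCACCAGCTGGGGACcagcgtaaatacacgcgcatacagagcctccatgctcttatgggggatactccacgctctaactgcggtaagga
Rxrg downstream, chr1:167644941-167645160, plus strand: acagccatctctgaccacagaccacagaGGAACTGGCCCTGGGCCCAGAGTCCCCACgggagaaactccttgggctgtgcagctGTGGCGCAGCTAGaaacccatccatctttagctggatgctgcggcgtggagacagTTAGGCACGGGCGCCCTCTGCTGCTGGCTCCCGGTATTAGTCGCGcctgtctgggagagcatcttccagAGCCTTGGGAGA

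These sequences are shown for the contrast in how motif matches and footprints met. In the internal promoter, AGGTCA at chr1:167618177-167618182 and CAGCTG at chr1:167618181-167618186 overlap by 2 bases, and no base of either lay in a footprint of either replicate. In the intron 9 site a CAGCTG at chr1:167638256-167638261 lay wholly inside footprints of both. In the downstream site 1 base of a CAGCTG lay in footprints of both, and most of the covered bases lay elsewhere.

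**Figure D2:**
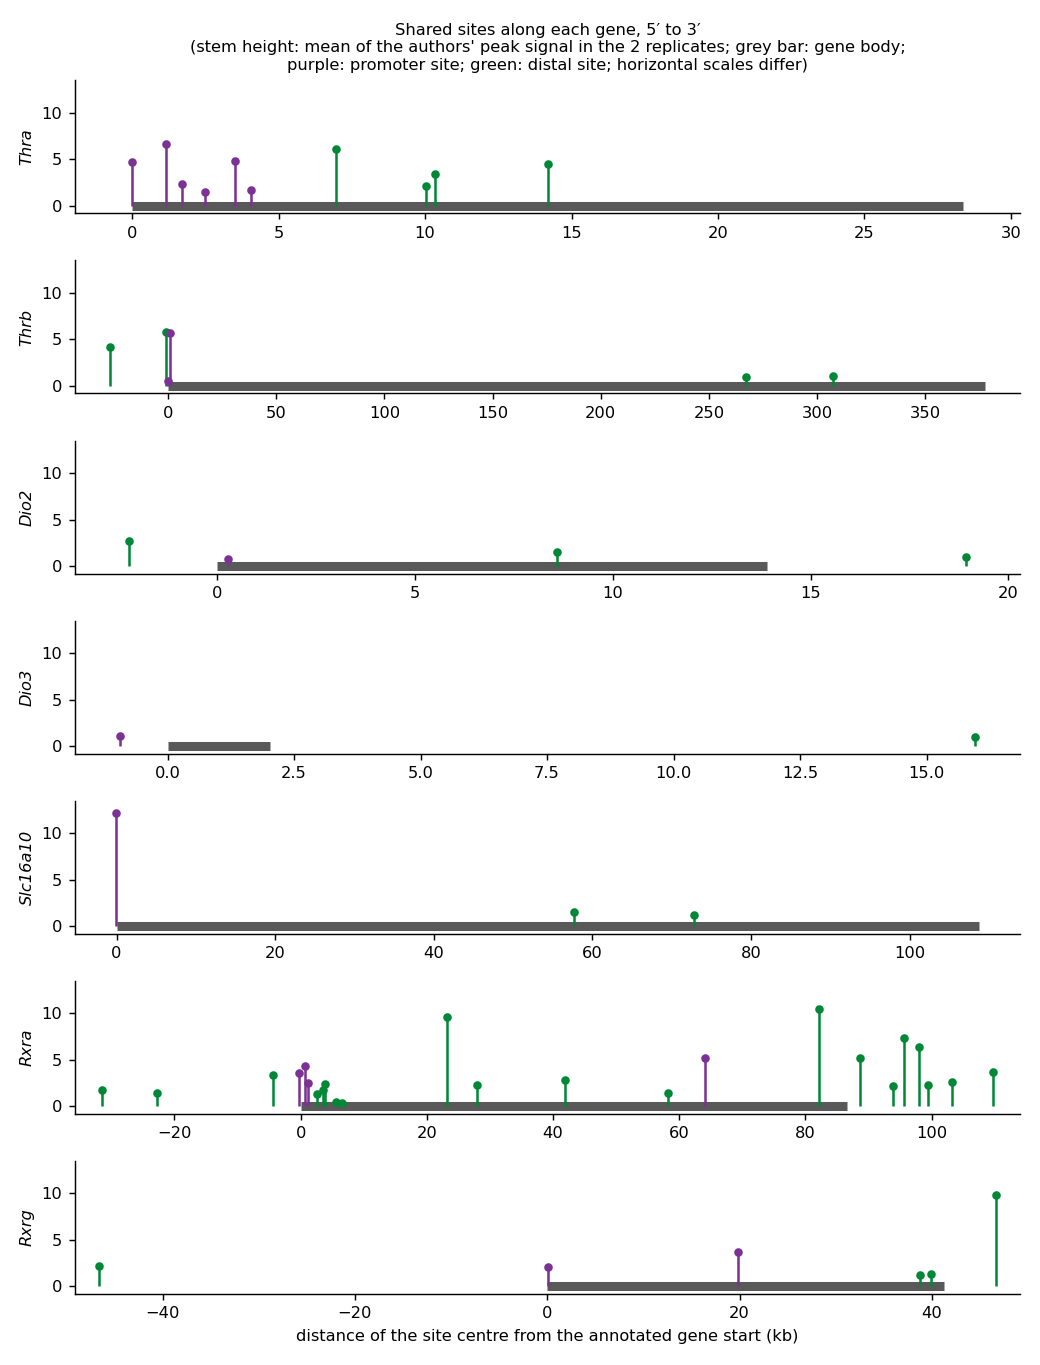
Shared sites along each gene by distance of the site centre from the annotated gene start (kb, each gene on its own horizontal scale, 5′ to 3′). Stem height is the mean signal of both replicates, the grey bar is the gene body, purple stems are promoter sites and green stems distal sites. Thra and Rxra carry many sites, the strongest Rxrg stem stands beyond the gene's end, and Slc16a10 has 1 tall stem at its start.

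Of the 55 sites 33 lay inside the gene they were assigned to, 12 upstream of its start and 10 beyond its end. Of the 33 annotated transcript starts of the members 26 lay within 1 kb of a shared site, against 53.3% of the transcript starts of all protein-coding genes. All 4 Rxrg starts and 8 of 9 Thra starts were open in this sense, 5 of 7 of Thrb, 4 of 6 of Rxra, 3 of 4 of Slc16a10, 1 of 2 of Dio3 and the single start of Dio2. At 6 of the 7 starts without a site no base within 1 kb had a listed false discovery rate of the cut rate in either replicate. The exception was Dio3-201, which lies close to the open start of Dio3-202, with 267 such bases in replicate 1 and 211 in replicate 2. Over all start positions 39.0% in replicate 1 and 39.6% in replicate 2 had none. Starts of 1 gene lie close together and share sites, so they are not independent.

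Footprints were found at most of the sites. Of the 17 promoter sites 16 held a footprint in both replicates (94.1%), against 86.2% of all shared promoter sites, and of the 38 distal sites 35 did (92.1%), against 95.5%. The stricter reading, at least 1 base covered by footprints of both, held for 15 of 17 promoter sites, against 82.6% of all, and for 33 of 38 distal sites, against 91.1%. The 7 sites without such a base were the weak Thrb promoter site, the Dio3 promoter site and the 5 sites of the Rxra intron 1 stretch. The median share of a site covered in both replicates was 8.64% for the promoter sites of the members, below the 15.8% of all promoter sites, and 17.6% for their distal sites, above the 14.0% of all. The covered share rises with signal among all sites, with medians of 6.50%, 10.9%, 16.7% and 29.1% from the lowest to the highest quartile of signal. Median signals of the members' promoter sites were 3.61 in replicate 1 and 3.21 in replicate 2, near the 3.66 and 3.40 of all promoter sites. Those of their distal sites were 2.46 and 2.13, above the 1.63 and 1.46 of all distal sites. Rxra held 20 of these 38 sites, with medians of 2.58 and 2.19. The medians of Thra, Thrb and Rxrg were also above those of all distal sites. Those of Dio3 (1.10 and 0.798) and Slc16a10 (1.53 and 1.26) were below, and that of Dio2 (1.51 and 1.50) was below in replicate 1 alone. Whether signal accounts for the differences in covered share was not tested.

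**Figure D3:**
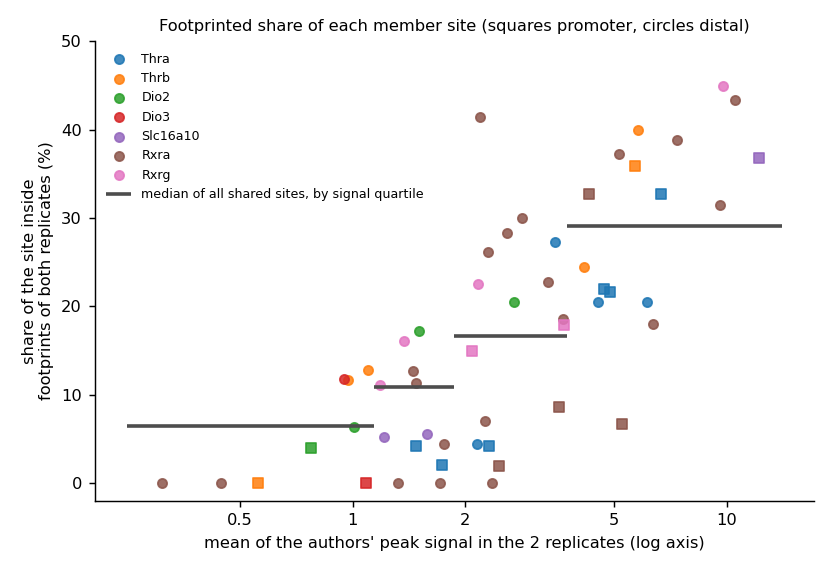
Share of each of the 55 member sites that lay inside footprints of both replicates (%), against the mean peak signal of the replicates (log axis). Squares are promoter sites and circles distal sites, coloured by gene, and horizontal lines are the medians of all shared sites in each quartile of signal. The strongest sites of Rxrg, Rxra, Thrb and Slc16a10 have shares above 35%, and 7 sites lie at 0.

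Motifs were sought on both strands as exact matches. In windows of 200 bp around the midpoint, CAGCTG was in 6 of 17 promoter sites and 20 of 38 distal sites of the members, where 15.2% of all promoter and 29.4% of all distal sites held it. GGGCGG was in 11 of 17 promoter sites, against 54.7% of all, and in 3 of 38 distal sites, against 12.4%. AGGTCA, the element that thyroid hormone and retinoid receptors recognise, was in 2 of 17 promoter sites, against 7.57%, and in 1 of 38 distal sites, against 13.8%. No member window held 2 direct copies of AGGTCA spaced by 4 bases or by 1, which 0.0224% and 0.0246% of all distal sites held. The AP-1 motif TGANTCA was in 0 of 17 promoter sites, against 3.33%, and in 5 of 38 distal sites, against 9.87%. The CTCF core was in 1 of 17 promoter sites, against 1.73%, and in 3 of 38 distal sites, against 8.92%. The MEF2 motif and the MEF3 motif TCAGGTTTC were in no member window, and 0.720% and 0.414% of all distal sites held them. An absent match says only that these letters are not in the window. Over whole sites, footprints of both replicates touched 4 of 4 CTCF cores, against 96.5% of the matches in all shared sites, 19 of 31 GGGCGG, against 46.9%, and 8 of 34 CAGCTG, against 22.1%. They touched 0 of 6 TGANTCA, against 16.6%, and 0 of 3 AGGTCA, against 16.2%. The single TGACGTCA, the cAMP response element, lay in the downstream Rxra site chr2:27774301-27774700 (6.86 and 5.81), outside the 200 bp window. It was wholly covered in both, where footprints of both touched 80.0% of the TGACGTCA matches in all shared sites. The median GC content was 64.0% at the members' promoter sites, against 65.0% for all promoter sites, and 56.8% at their distal sites, against 53.5%.

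The replicates differed in level. The signal was higher in replicate 1 at 45 of 55 member sites, where it was at 69.3% of all shared sites. After centring on all shared sites the median log2 ratio of the members was -0.04, within the spread of 0.30 (SD) over all shared sites. The spread was 0.35 in the weakest quartile and 0.20 in the strongest. Above percentile 95 of the size of the ratio were 4 of the 55 sites, all higher in replicate 2: the Dio3 promoter, the wide Rxra intron 1 site, chr2:27653609-27653773 upstream of Rxra with 1.22 and 1.68, and the Rxrg intron 9 site with 0.989 and 1.38. Of the 83 merged strict stretches at the members, replicate 1 alone had 12 (14.5%) and replicate 2 alone 16 (19.3%), where of all stretches assigned to genes in the same way 17.6% were called in replicate 1 alone and 10.7% in replicate 2 alone. Rxra had 5 and 12 of them, and without Rxra the members had 7 (16.7%) and 4 (9.52%) of 42.

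**Figure D4:**
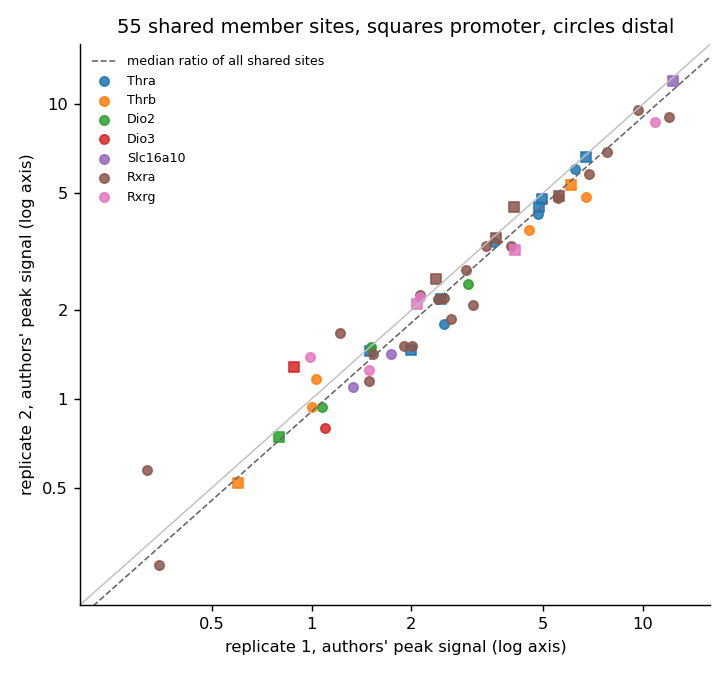
Peak signal of the 55 member sites in replicate 1 (horizontal) and replicate 2 (vertical), both on log axes, squares for promoter and circles for distal sites, coloured by gene. The grey line marks equal signal and the dashed line the median ratio of all shared sites. Most points lie between or near these lines. Of the points above both lines, the Dio3 promoter and a weak Rxra site lie farthest from them.

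Other genes of the pathway are given by role. Of 34 such genes 29 (85.3%) had a shared promoter site, against 63.7% of all protein-coding genes. That share also stands beside each count by role. Among 5 further transporters 4 had one: Slc7a5, the light chain of an amino acid transporter that also carries the hormone, was highest with 19.3 and 16.1, Slc7a8 lowest with 1.87 and 1.93, and Slco1c1, a thyroxine transporter known from brain vessels, had none. Dio1, the deiodinase of liver and kidney, had none, and neither did Crym, a cytosolic binder of the hormone, in the strict lists (0.431 and 0.512 in the permissive ones). Rxrb, the remaining retinoid X receptor, had 22.0 and 19.3, above both Rxra and Rxrg.

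All 6 genes of the corepressor complex had a site, from Tbl1xr1 with 16.6 and 13.8 to Tbl1x with 3.31 and 3.06, both encoding exchange factors of that complex. All 8 coactivators had one, from Ncoa2 with 26.5 and 21.3 to Ppargc1a, which encodes a regulator of mitochondrial genes, with 0.692 and 0.778. Of 12 genes known to respond to the hormone 10 had one. Klf9, a transcription factor induced by the hormone in many cells, had 15.2 and 11.9 and Slc2a4, the insulin-responsive glucose transporter, 14.8 and 12.0, so that Klf9 was highest in replicate 1 and Slc2a4 in replicate 2. Me1, the cytosolic malic enzyme, was lowest with 1.38 and 1.51. Myh7, the slow myosin heavy chain that the hormone lowers, and Myh2, a fast oxidative one, had none. Of 7 genes of the thyroid gland itself, taken as a contrast, 2 had one: Tshr, the thyrotropin receptor, with 8.56 and 8.60, and Duox2, an oxidase, with 1.34 and 1.16. Tg, Slc5a5, Pax8, Nkx2-1 and Foxe1 had none in the strict lists. In the permissive ones Foxe1 had 0.579 and 0.725.

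Of 45 other nuclear receptor genes, a list that counts Rxrb again, 34 (75.6%) had a shared promoter site, against 63.7% of all protein-coding genes. The highest in both replicates were Esrra, an orphan receptor of energy metabolism, with 37.0 and 31.5, and Nr2c2, a testicular orphan receptor, with 27.8 and 24.7. Next came Nr1d2, a repressor of the clock, in replicate 1 (26.6 and 20.7) and Ppard, a lipid-sensing receptor, in replicate 2 (22.9 and 21.0). Medians over the 34 were 8.38 and 7.36. The strongest promoter peak of each of Thra, Thrb, Rxra and Rxrg was below both medians.

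**Figure D5:**
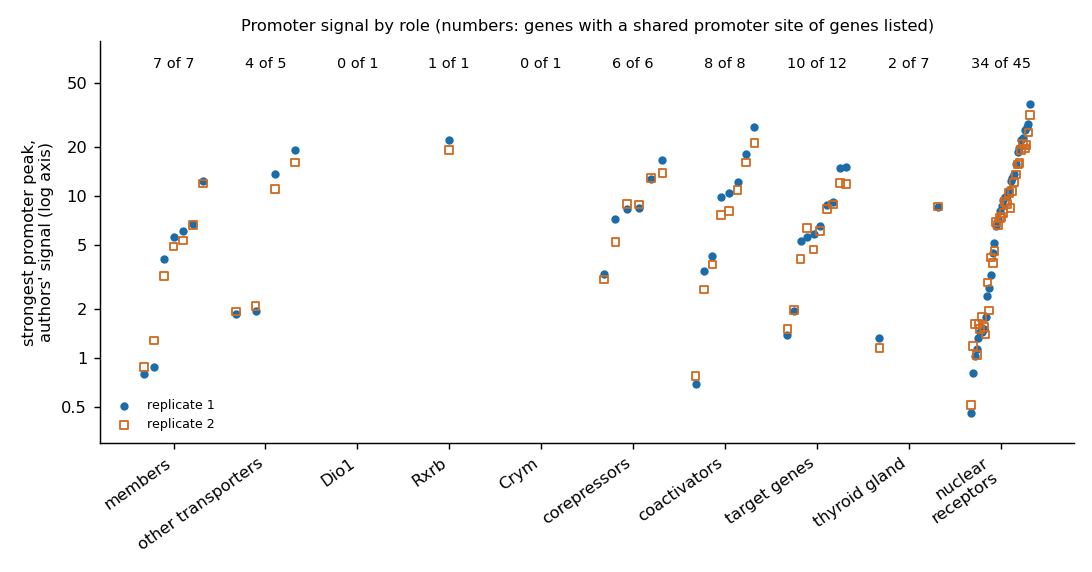
Strongest promoter peak of each gene with a shared promoter site, by role, on a log axis, filled circles for replicate 1 and open squares for replicate 2. The numbers above each column give the genes with a shared promoter site of those listed. Members span the range from 0.798 to 12.3 in replicate 1, Dio1 and Crym have no site, and the nuclear receptors reach 37.0.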

How the data were processed

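DNase-seq of 1 group with 2 replicates was used as deposited. Per the labels, the files of each library were made from that library's alignments on mm10, and replicates were not pooled. The submitters' aligner and callers (not given in the sources used here) could change which sites were called. Each strict or permissive peak carries a deposited signal computed by the authors, and every such value was a whole multiple of 1 step per library (100% of values, within 0.05 of a step). The deposited false discovery rates (q-values) of the cut rate are listed only below 0.05, and the deposited footprints carry a single q-value level of 0.01. Read totals are not given here, so steps and peak counts stand for depth.

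Sites, distances, footprint overlaps and motifs were computed in Python 3.11.15 with pandas 2.3.3, numpy 2.4.6 and pyfaidx 0.9.0.4, from the GENCODE vM21 starts of protein-coding genes and the mm10 reference. The overlap code was tested on simulated peaks. The members and lists were chosen with earlier results of these data known, so counts are descriptions and no test was run. Pathway genes named are the highest and lowest of each role and every gene without a shared promoter site, nuclear receptors the highest 3, and distal sites the 3 strongest of each gene, with other sites named where a footprint, motif or replicate difference singled them out, or few remained, after their values were seen. A listed gene is not reported here and was left out of its list. Alternatives covered the peak list, the signal, the overlap, the windows, the starts, the footprint rule and each replicate alone.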

Additional observations from a re-analysis of the deposited data

How the results depend on the processing

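The number of members with a shared promoter site stayed between 5 and 7 under every alternative run. It was 6 with a promoter window of 500 bp, which loses Dio3, and 5 with the stronger 50% of strict peaks, which loses both deiodinase genes. The 38 distal sites fell to 22 with the stronger 50% of strict peaks and to 25 with assignment within 20 kb, were 57 with the permissive lists, and ranged from 48 to 52 with a replicate left out. For Rxra alone, the distal count rose from 20 to 32 when replicate 1 was left out, and fell to 11 with assignment within 20 kb. The share of sites with a footprint in both replicates, 92.7%, was 98.2% when a footprint in either replicate counted, and 86.1% to 92.6% over the peaks of a single replicate. The centred ratio of -0.04 was 0.02 with the permissive lists. Counts of pathway genes ranged from 27 to 31 and of nuclear receptor genes from 25 to 38. The mean promoter signal of Dio2 was 2.70 with a window of 2500 bp, where the site at -2.23 kb counts. Of the alternatives for single genes 17 moved a value past the limits used, most of them counts of distal sites, and 94 did not. The 94 do not measure stability. A promoter signal was held to the SD of its replicates, which either replicate alone always meets. Most other settings left the strongest promoter peak unchanged. A count could shift as far as from 38 to 57 and still be kept. No paired analysis was possible because there was 1 group. The limits are the 2 libraries, unknown read depth and signal scale, and assignment of sites by distance.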

Other observations

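The permissive lists added 23 weaker sites shared by both replicates at the members, with signals from 0.332 to 1.65 in replicate 1 and from 0.306 to 1.98 in replicate 2. A footprint in both replicates was found at 18 of these 23 sites, and the share over all such weaker sites was not computed. Rxra had 10 of these and Slc16a10 had 4, from 0.586 to 0.699 in replicate 1. Dio3 had 3, 1 of them over its start with 0.735 and 0.937, and Thrb had 3.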
